A study of Mus musculus with 19 samples.

Results

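The coagulation and complement factors are 35 mouse genes for plasma proteins that hepatocytes make and secrete: 6 vitamin K-dependent factors, 6 contact factors and cofactors, 3 fibrinogen chains, 4 genes for clotting inhibitors and plasminogen, 6 complement recognition proteins and initiating proteases, 4 convertase components with factor I, and 6 terminal complement genes. The rule that picks them names genes by function. All 35 were found among the 35274 genes of the count tables, and all 35 were among the 16387 genes that passed the filter on low counts. The question put to them was whether the RNA of these secreted proteins was lower to the same degree, gene by gene, as other hepatocyte RNA.

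RNA was sequenced from primary mouse liver hepatocytes of 3 populations with 5 biological samples each. GREEN samples came from chronically injured liver and are labelled as hepatocytes derived from DR, which the labels do not spell out. RED samples held the native hepatocytes of such injured livers, and CTL samples the native hepatocytes of control livers. Animals of all 3 groups carried OPN-CreERT2, a tamoxifen-inducible Cre recombinase under the osteopontin promoter, together with Rosa26R-mT/mG, a reporter that turns from red to green fluorescence in a cell where Cre has acted and in its progeny. The column names of all RED and GREEN samples carry the tag 16w and those of CTL samples do not; the labels used here do not say what it stands for, nor do they give age, sex or the injury protocol.

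Clotting runs as a cascade in plasma in which each protease activates the next, ending with thrombin, which cuts fibrinogen into fibrin. Complement runs in parallel: recognition proteins activate initiating proteases, these assemble convertases that cleave C3 and C5, and the terminal components build a pore in the target membrane. The liver is the main source of most of these proteins, and low plasma levels of clotting factors are a classical sign of failing hepatocyte function.

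Libraries were made in 2 experiments with different kits, 4 of the 15 samples in both, and the 19 libraries held between 22442431 and 34216692 estimated counts in experiment 1 and between 38061745 and 44177424 in experiment 2. The 35 genes took 2.275% to 6.615% of the counts of a GREEN library, 4.674% to 6.903% of a RED library and 5.742% to 6.571% of a CTL library. GREEN 3, GREEN 4 and GREEN 5 stood apart from the other libraries: 21 biliary markers summed to 4611, 10410 and 5841 CPM there (estimated counts relative to the library total, with totals scaled between libraries by trimmed means, TMM), against 1059 and 1363 CPM in GREEN 1 and GREEN 2, 323 to 604.6 CPM in RED and 256 to 569.8 CPM in CTL. All 21 biliary markers were above 0 in every GREEN library, 3 were at 0 in at least 1 RED library, and 9, among them Krt19 and Epcam, were at 0 in at least 1 CTL library. Summed endothelial markers spanned 567.3 to 1213 CPM in GREEN, 585.4 to 3036 CPM in RED and 70.8 to 203.6 CPM in CTL. Stellate and matrix markers spanned 1360 to 4208 CPM in GREEN, 490.7 to 3033 CPM in RED and 63.68 to 155.4 CPM in CTL, and macrophage markers 231.2 to 891.3 CPM in GREEN, 177.5 to 2014 CPM in RED and 128.8 to 190 CPM in CTL. The 45 hepatocyte reference genes, none of them a coagulation or complement gene, summed to 57238 to 141023 CPM in GREEN, 152694 to 243908 CPM in RED and 197453 to 278542 CPM in CTL. Y-linked genes were high in GREEN 3, GREEN 4, RED 4, RED 5, CTL 1, CTL 4 and CTL 5 and low in the other 8 samples. GREEN 3 and GREEN 4 have the same column name, with code number 4, in the 2 experiments. Their titles count them as separate samples, but GREEN may hold only 4 animals. Each other column name found in both experiments, up to its library index, belongs to 1 sample sequenced in both. In bulk RNA, fewer hepatocytes in a sample and less of these RNAs in each hepatocyte cannot be told apart.

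In GREEN relative to RED hepatocytes, the estimate of every coagulation and complement gene was below 0, and 5 of the 35 fell past the threshold: F9, C8g, Cfi, C1ra and Masp1. The threshold was a Benjamini-Hochberg adjusted p under 0.05 in edgeR's quasi-likelihood test on TMM-scaled estimated counts, with 12.9% of all genes tested passing in either direction, 3.22% as lower and 9.68% as higher. The log2 fold changes of the 35 genes spanned -1.18 (C6) to -0.37 (Pros1) with a median of -0.91 and a standard deviation (SD) across genes of 0.15, while the median of all 16387 genes was -0.02. The 45 hepatocyte reference genes had a median of -0.87 with an SD across genes of 0.11, and 5 of them passed as lower. An unadjusted p under 0.05 was reached by 28 of the 35 genes, all lower, and by 13.6% of all genes as lower. The count of 5 rested on few samples: it was 24 without GREEN 1, 15 without GREEN 2, 1 without GREEN 3, GREEN 4, GREEN 5 or RED 1, 2 without RED 5, and 3 without RED 2, RED 4, CTL 1 or CTL 5, each left out in turn. Counting GREEN 3 and GREEN 4 as 1 animal by dropping either thus left 1 gene, Masp1. A block for code numbers 2, 3 and 4 of experiment 2, whose RED and GREEN samples deviated together (correlations of 0.534, 0.311 and 0.777), gave 16, an alternative chosen after seeing the data. The count was also 25 by DESeq2 and 23 by limma-voom, 30 in experiment 1 alone (GREEN 4 and GREEN 5) and 0 in experiment 2 alone (GREEN 1, GREEN 2 and GREEN 3), with medians of -1.72 and -0.47 in the 2 experiments. Shares of all genes passing are not given for these alternatives or for the fits with samples left out. Whether the moved counts are particular to these 35 genes therefore cannot be told.

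**Figure D1:**
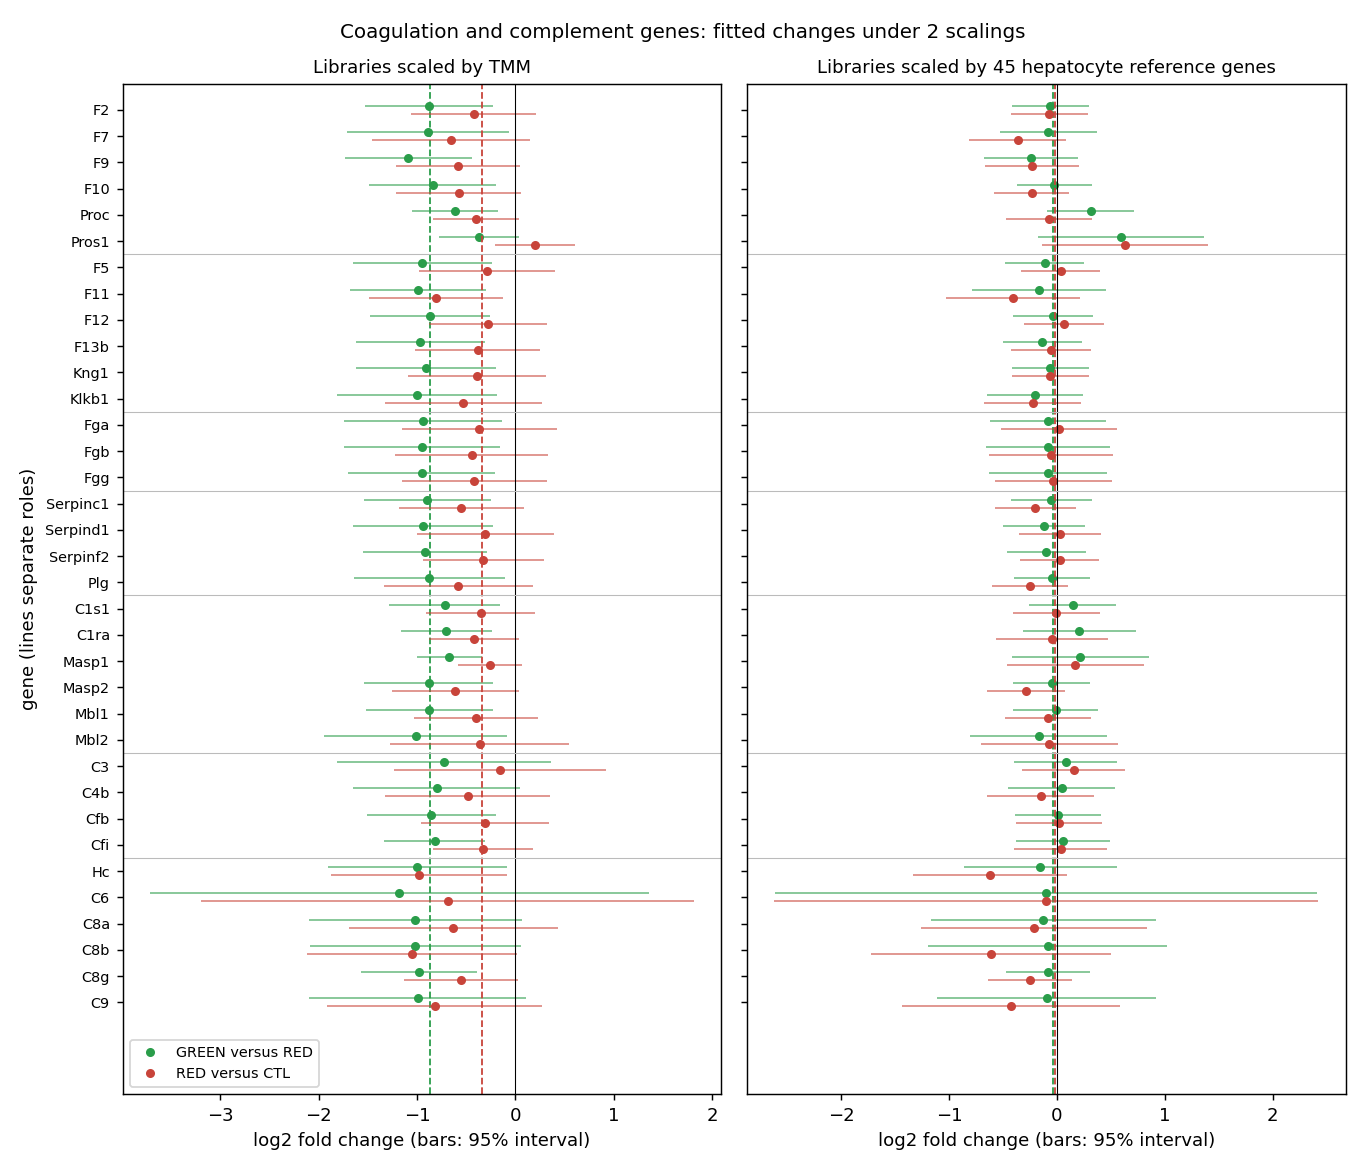
Log2 fold changes of the 35 genes (points) with 95% intervals (bars) for GREEN versus RED and RED versus CTL, after scaling by TMM on the left and by the 45 hepatocyte reference genes on the right; dashed lines mark the median of the reference genes. On the left the GREEN versus RED points lie around the reference median of -0.87, and on the right the intervals of all 35 genes cross 0 in both comparisons.

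Among the vitamin K-dependent factors, proteins whose gamma-carboxylated glutamates bind calcium and phospholipid, F9 had the lowest estimate and Pros1 the highest. F9 encodes factor IX, lies at chrX:59999464-60030759 (GRCm38) and had 140, 123, 80.5, 56.2 and 81.1 CPM in GREEN 1 to 5, 346.5, 196.3, 141.9, 164.5 and 225.6 CPM in RED 1 to 5, and 233.5, 224.4, 347.2, 497.4 and 304 CPM in CTL 1 to 5. Every GREEN sample was below every RED and every CTL sample, by a narrow margin between GREEN 1 and RED 3. F9 was 0.47 times as high in GREEN as in RED (log2 fold change -1.09, SE 0.30, adjusted p = 0.0327 in edgeR), with -1.98 in experiment 1 alone and -0.55 in experiment 2 alone. The adjusted p of F9 stayed under 0.05 in 9 of 15 fits that each left out 1 sample, with a range of 0.0103 to 0.0935.

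Pros1 encodes protein S, the cofactor of activated protein C, and lies at chr16:62854307-62929346. It had 60.4, 50.8, 65.1, 61.8 and 62.3 CPM in GREEN 1 to 5, 71.3, 69.4, 61.4, 87.7 and 99.8 CPM in RED 1 to 5, and 65.1, 52.2, 46, 99.8 and 75.6 CPM in CTL 1 to 5. The GREEN samples lay close together and overlapped both other groups. The log2 fold change of Pros1 in GREEN versus RED was -0.37 with a 95% interval from -0.78 to 0.04 (adjusted p = 0.199), and it was 0.07 when libraries were scaled by their totals. The other vitamin K-dependent genes were F2 (prothrombin) at -0.88, F7 at -0.89, F10 at -0.84 and Proc, the gene of protein C, at -0.61, with adjusted p between 0.0618 and 0.130.

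The estimates of the contact factors and cofactors ran from -1.0 for Klkb1 to -0.87 for F12, and none of the 6 passed. Klkb1 encodes plasma prekallikrein and had 274.3, 176, 94.8, 28.3 and 78.7 CPM in GREEN 1 to 5, 257.5, 366.3, 212.2, 201 and 129.5 CPM in RED 1 to 5, and 367.4, 392.6, 243.1, 305.4 and 386.3 CPM in CTL 1 to 5. GREEN 1 lay above RED 1 and GREEN 4 was the lowest of all 15 samples, while GREEN 1, GREEN 2 and GREEN 3 were each below the RED sample of the same code in experiment 2 (RED 2, RED 3 and RED 4). F12, the gene of factor XII, had 391.3, 352.3, 210.8, 131.5 and 241 CPM in GREEN 1 to 5, 725.5, 453.9, 407.1, 425 and 447.8 CPM in RED 1 to 5, and 562.2, 492.7, 713.9, 751.9 and 472.2 CPM in CTL 1 to 5. The GREEN and RED samples of F12 did not overlap, yet its adjusted p was 0.0579. F5 (factor V), F11, F13b (the carrier subunit of factor XIII) and Kng1 (kininogen) lay between -0.99 and -0.91. Kng2, a paralog of Kng1, held 132473 counts over all 15 libraries, against 1097177 for Kng1. This leaves the estimated counts of Kng1 less certain.

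The 3 fibrinogen chains, which assemble into a hexamer and whose genes lie in a cluster on chromosome 3, had almost equal estimates: -0.94 for Fga, -0.95 for Fgb and -0.95 for Fgg, an SD of 0.0052 across the chains against 0.15 across the 35 genes. Fga had 6154, 5091, 4384, 1997 and 2777 CPM in GREEN 1 to 5, 9197, 7267, 5732, 9110 and 6875 CPM in RED 1 to 5, and 10130, 6398, 7696, 14170 and 10740 CPM in CTL 1 to 5. Fgb had 4676, 3910, 3457, 2002 and 2550 CPM in GREEN 1 to 5, 8712, 5479, 4346, 7217 and 6731 CPM in RED 1 to 5, and 8320, 5197, 7087, 14470 and 9185 CPM in CTL 1 to 5. In both chains GREEN 1 alone reached the range of RED, no GREEN sample reached that of CTL, and no chain passed (adjusted p of 0.104, 0.0975 and 0.0824 for Fga, Fgb and Fgg). Per kilobase of exon, the share of Fgb among the 3 chains had a median of 25.1% in GREEN (24.3% to 27.3%), 25.1% in RED (24.1% to 27.2%) and 25.8% in CTL (24.6% to 28.0%). The range of that share was nearly the same in the 3 groups.

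The 250 bases before the RefSeq start of 4 genes are shown because they frame the range of the clotting genes: 2 fibrinogen genes with equal estimates, F9 with the largest fall that passed, and Pros1 with the estimate nearest 0. Sequences are RefSeq's for GRCm38.p6, written 5′ to 3′ on the gene's strand; capitals mark letters found by a search of both strands for TTGCNNAA, a C/EBP motif, or GTTAAT, an HNF1 motif, whose reverse reads ATTAAC. The windows are chr3:83049864-83050113 (minus strand) for Fgb, chr3:83007474-83007723 (plus strand) for Fgg, chrX:59999214-59999463 (plus strand) for F9 and chr16:62854057-62854306 (plus strand) for Pros1.
Fgb: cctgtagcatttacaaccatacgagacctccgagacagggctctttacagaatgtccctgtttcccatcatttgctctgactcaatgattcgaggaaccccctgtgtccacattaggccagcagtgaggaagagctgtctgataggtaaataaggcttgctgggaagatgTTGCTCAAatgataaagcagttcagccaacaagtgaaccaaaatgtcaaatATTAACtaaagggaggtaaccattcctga
Fgg: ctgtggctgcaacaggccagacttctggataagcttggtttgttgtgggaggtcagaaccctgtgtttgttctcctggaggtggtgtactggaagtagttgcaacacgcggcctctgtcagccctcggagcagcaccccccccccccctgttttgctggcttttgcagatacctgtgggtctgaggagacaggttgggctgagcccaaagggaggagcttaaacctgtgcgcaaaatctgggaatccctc
F9: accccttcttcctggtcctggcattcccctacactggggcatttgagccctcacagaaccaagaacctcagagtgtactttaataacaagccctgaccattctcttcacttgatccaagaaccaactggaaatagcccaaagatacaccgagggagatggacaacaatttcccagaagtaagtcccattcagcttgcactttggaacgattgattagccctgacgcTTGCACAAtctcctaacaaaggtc
Pros1: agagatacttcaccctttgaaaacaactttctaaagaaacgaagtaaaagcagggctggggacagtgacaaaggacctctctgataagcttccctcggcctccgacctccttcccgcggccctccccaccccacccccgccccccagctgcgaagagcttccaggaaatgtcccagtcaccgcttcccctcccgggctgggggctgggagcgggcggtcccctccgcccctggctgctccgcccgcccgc
The Fgb window held both motifs, as did that of Fga, which is not shown, and the Fgg window held neither. The estimates of Fga, Fgb and Fgg were -0.94, -0.95 and -0.95, and a link to the motifs was not tested. GC content was 44.8% for Fgb, 56.8% for Fgg, 47.6% for F9 and 64.4% for Pros1, the last being the highest of 30 windows that covered 28 of the 35 genes (median 49.2%; 52.4% over 32851 windows of all genes). TTGCNNAA occurred in 26.7% of the 30 windows, 32.4% of the windows of the hepatocyte reference genes and 9.6% of all windows, and GTTAAT in 23.3%, 16.2% and 6.4%. CAAAGTCCA, an HNF4 core motif searched on both strands, was in none of the 30 windows and in 0.4% of all, and TATAAA, searched on the gene's strand only, in 3.3% of the 30 windows, 18.9% of the reference windows and 7.6% of all. A match describes these letters only and is not evidence of binding.

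Of the clotting inhibitors and plasminogen, Serpind1 was lowest at -0.94 and Plg highest at -0.87, and none of the 4 passed. Serpind1, the gene of heparin cofactor II, had 608.9, 425.6, 233.9, 173.7 and 282.2 CPM in GREEN 1 to 5, 990.5, 752.3, 521.2, 493.5 and 575.7 CPM in RED 1 to 5, and 695.1, 674.6, 907.4, 1120 and 732.2 CPM in CTL 1 to 5. Only GREEN 1 reached the RED range, and no GREEN sample reached the CTL range. Plg, the gene of plasminogen, the precursor of the fibrin-cutting protease plasmin, had 3107, 2223, 1279, 653.5 and 1238 CPM in GREEN 1 to 5, 3938, 3628, 2662, 2657 and 2048 CPM in RED 1 to 5, and 4272, 4279, 4264, 5106 and 4297 CPM in CTL 1 to 5. All 5 RED samples and all 5 GREEN samples of Plg lay below all 5 CTL samples. Serpinc1 (antithrombin) at -0.90 and Serpinf2 (alpha2-antiplasmin) at -0.92 had adjusted p of 0.0628 and 0.0526.

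Complement recognition and initiation held 2 of the 5 genes that fell, C1ra and Masp1, which had also the estimates nearest 0 in that role. Masp1, at chr16:23449417-23520815, encodes a protease that the mannose-binding lectins carry. It had 109, 91.7, 82.0, 76.6 and 84.0 CPM in GREEN 1 to 5, 127.2, 115.4, 116.7, 163.9 and 183.9 CPM in RED 1 to 5, and 171.4, 158.7, 160.5, 192.1 and 162.9 CPM in CTL 1 to 5. Every GREEN sample was below every RED and CTL sample, and the SD within GREEN was 12.4 CPM around a mean of 88.6 CPM (n = 5). The log2 fold change of Masp1 was -0.67 (SE 0.15, adjusted p = 0.0127), smaller in size than the median of the 35 genes, and it passed in all 15 fits that left out 1 sample (0.00474 to 0.0492) but not in experiment 2 alone (-0.49, adjusted p = 0.385).

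C1ra, the gene of the protease C1r at chr6:124512405-124523443, had 268.8, 241.3, 209.7, 171.2 and 231.8 CPM in GREEN 1 to 5, 521.9, 301.2, 272.4, 382.6 and 393.9 CPM in RED 1 to 5, and 491.2, 322.3, 493.6, 734.3 and 471.5 CPM in CTL 1 to 5. GREEN 1 and RED 3 nearly met, with no overlap. Its log2 fold change was -0.70 (SE 0.21, adjusted p = 0.0459), and it passed in 6 of the 15 fits that left out 1 sample. At the other end of the role was Mbl2, the gene of mannose-binding lectin C, with 187.3, 219.4, 106.5, 62.9 and 163.7 CPM in GREEN 1 to 5, 598, 233.4, 263.8, 234.3 and 238.5 CPM in RED 1 to 5, and 193.8, 572.4, 701.9, 333.6 and 208.1 CPM in CTL 1 to 5. RED 1 was far above the other RED samples of Mbl2, and its change of -1.01 had a wide 95% interval of -1.94 to -0.08 (adjusted p = 0.128). C1s1 (protease C1s) stood at -0.72, Mbl1 at -0.87 and Masp2 at -0.88. The near-copies C1rb and C1s2 held 70 and 34 counts over all 15 libraries, against 188968 for C1ra and 291256 for C1s1.

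In the convertase role Cfi fell, and C3 had the estimate nearest 0. Cfi, at chr3:129835884-129875332, encodes factor I, the protease that cuts C3b and C4b. It had 618.9, 656.3, 421.5, 303 and 376.3 CPM in GREEN 1 to 5, 1088, 729.5, 766, 802.7 and 806.9 CPM in RED 1 to 5, and 1062, 834, 984.3, 1411 and 990.5 CPM in CTL 1 to 5. All GREEN samples lay below all RED samples, with a log2 fold change of -0.82 (SE 0.24, adjusted p = 0.0402 in edgeR), which passed in 6 of the 15 fits that left out 1 sample. C3, the hub of all complement pathways, had 22900, 12930, 6802, 3464 and 7423 CPM in GREEN 1 to 5, 21180, 26800, 14750, 12510 and 9000 CPM in RED 1 to 5, and 16600, 20560, 22580, 17190 and 14830 CPM in CTL 1 to 5. GREEN 1 was the second highest of all 15 samples and GREEN 4 the lowest, and again GREEN 1, GREEN 2 and GREEN 3 were below the same-coded RED 2, RED 3 and RED 4. The 95% interval of the C3 change, -1.82 to 0.36, was among the wider ones (estimate -0.73, adjusted p = 0.351), and without GREEN 3, GREEN 4 and GREEN 5 the estimate was 0.10. Cfb, the gene of factor B, had 1363, 1084, 714.1, 402.1 and 753.6 CPM in GREEN 1 to 5, 2192, 1607, 1231, 1367 and 1277 CPM in RED 1 to 5, and 2127, 1553, 1587, 2410 and 1867 CPM in CTL 1 to 5. Its estimate of -0.85 was the lowest of the role (adjusted p = 0.0780), with GREEN 1 inside the RED range and no GREEN sample inside the CTL range. C4b was at -0.80, and its estimated counts are uncertain because mice carry near-identical copies of this gene.

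**Figure D2:**
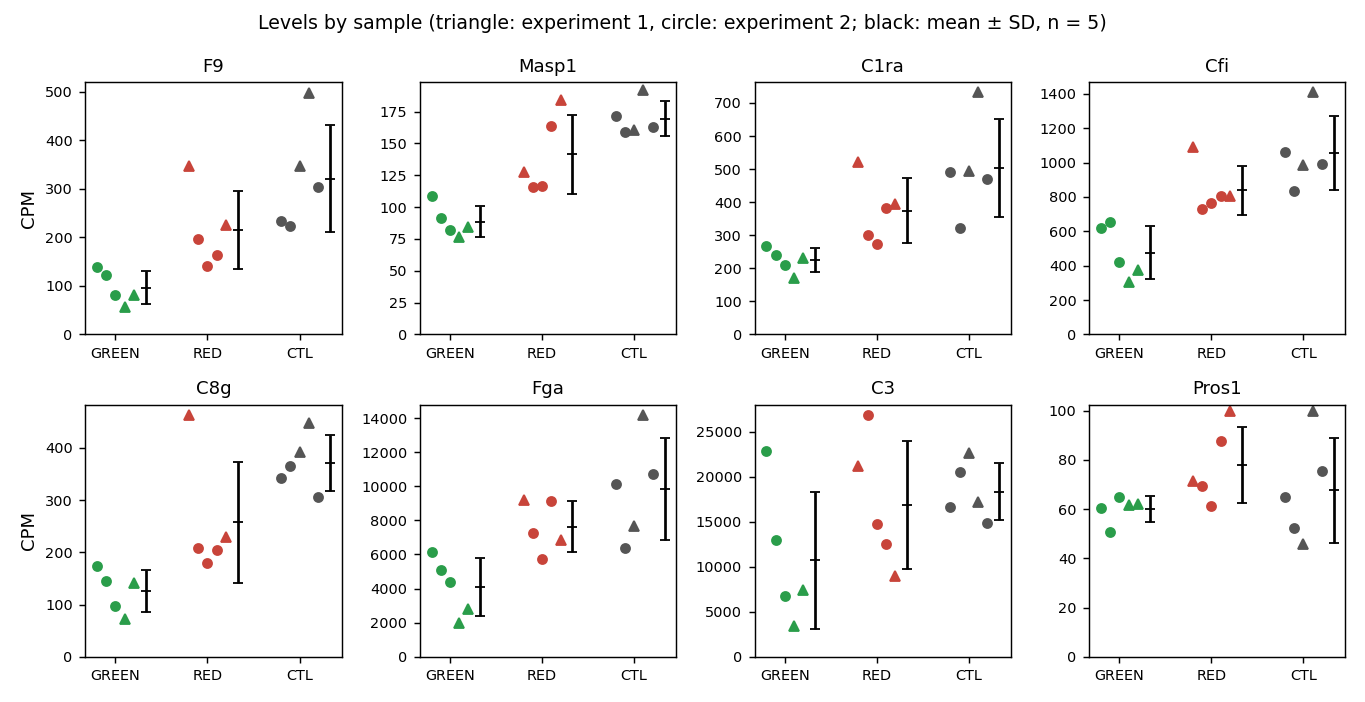
TMM-scaled CPM of 8 genes in each sample (triangles: experiment 1, circles: experiment 2), with the mean and SD of each group of 5 in black. F9, Masp1, C1ra, Cfi and C8g are the 5 genes that fell in GREEN versus RED, and none of their GREEN points reaches a RED point; Fga, C3 and Pros1 overlap.

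The terminal genes had the lowest median of the 7 roles, -1.01, with 1 of 6 passing. C8g encodes the gamma chain of C8, lies at chr2:25498651-25501719, and had 173.9, 145.4, 96.9, 72.3 and 141.6 CPM in GREEN 1 to 5, 463.1, 208.6, 180.4, 204.1 and 230.2 CPM in RED 1 to 5, and 342.4, 365.8, 392.2, 448.1 and 305.1 CPM in CTL 1 to 5. All GREEN samples were below all RED samples, closely so for GREEN 1 and RED 3, and RED 1 lay far above the other RED samples. C8g was 0.508 times as high in GREEN as in RED (log2 fold change -0.98, SE 0.27, adjusted p = 0.0348 in edgeR) and passed in 11 of the 15 fits that left out 1 sample. Hc, the gene of complement C5, C8a, C8b and C9 lay between -1.02 and -0.99, with adjusted p of 0.125 to 0.203.

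C6 had the lowest estimate of all 35 genes and the least certain one, -1.18 with a 95% interval from -3.72 to 1.35 (adjusted p = 0.531). C6, at chr15:4727175-4814967, had 53.9, 20.7, 184, 107 and 22.4 CPM in GREEN 1 to 5, 52.8, 66.8, 29.2, 379.1 and 352.1 CPM in RED 1 to 5, and 363.8, 5.2, 3.11, 570.5 and 476.4 CPM in CTL 1 to 5. Within each group the samples fell into a high and a low set, and the 7 high ones were the 7 samples with high Y-linked RNA (116.9 to 198 CPM summed over 4 genes, against at most 16.69 CPM in the other 8). In CTL the split was not particular to C6: the 3 samples with high Y-linked RNA lay above the other 2 for 15 of the 35 genes, the 3 fibrinogen chains among them, and for 9.24% of all genes tested. C9 had 1149, 2347 and 1264 CPM in CTL 1, CTL 4 and CTL 5, against 223 and 317.6 CPM in CTL 2 and CTL 3. The lowest of those 3 CTL samples was 70 times the highest of the other 2 for C6, 4.64 times for C8a, 3.62 times for C9, 3.21 times for C8b and 1.92 times for Hc. It was 1.32 times for Fga, the next in order, and C8g did not split this way.

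This split was examined with the summed Y-linked level as a further term of the model, a choice made after seeing the data. Over the span of that level, 4.43 log2 units, C6, whose split prompted the term, was higher by 3.71 (SE 0.58), which is given as a description. Pros1 was higher by 0.45 (adjusted p = 0.0216) and Mbl2 lower at -1.02 (adjusted p = 0.0135), with 1.46% of all genes passing as higher and 2.84% as lower. The values for C8b (1.08, adjusted p = 0.0752), C8a (0.96, adjusted p = 0.140) and C9 (0.83, adjusted p = 0.243) did not pass, and C8g was at -0.39 (adjusted p = 0.246). With this term, 20 of the 35 genes passed as lower in GREEN versus RED instead of 5. The share of all genes passing in that comparison is not given here. Whether the larger count is particular to these genes therefore cannot be told. The labels used here give no sex.

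**Figure D3:**
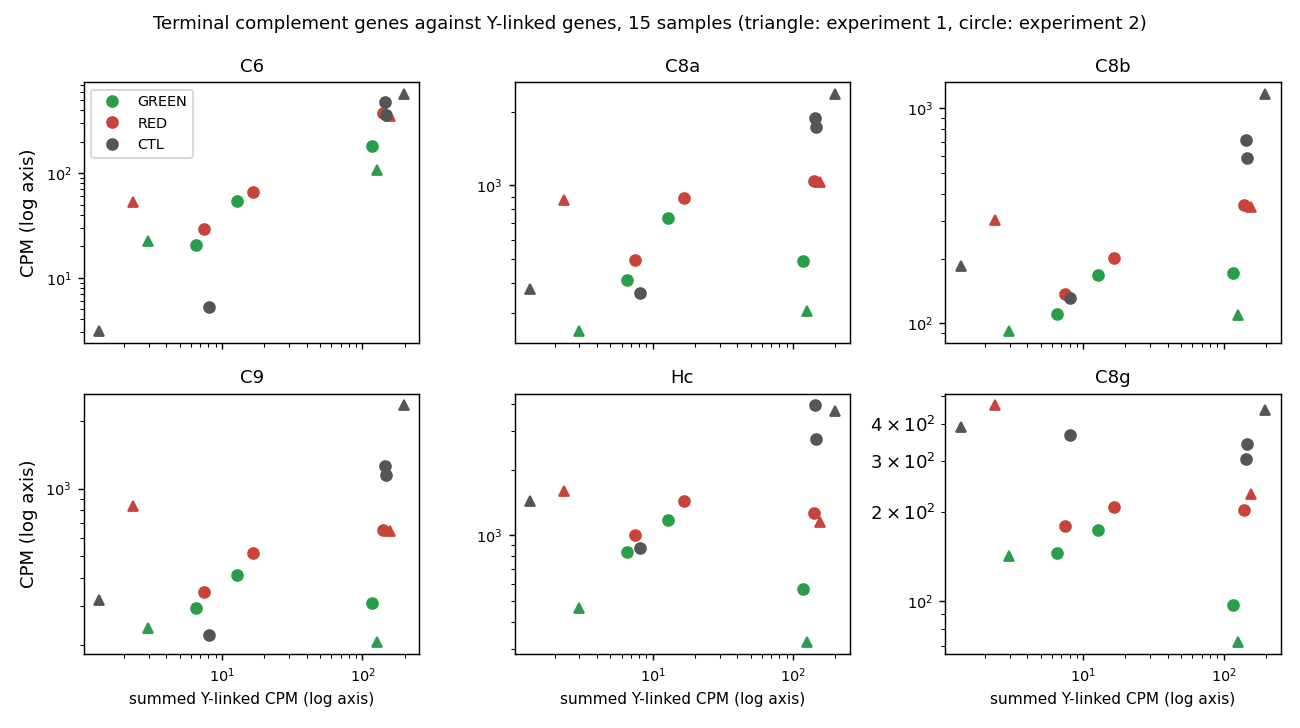
CPM of the 6 terminal complement genes against the summed CPM of 4 Y-linked genes in the 15 samples, both on log axes (triangles: experiment 1, circles: experiment 2). C6 is between 107.1 and 570.5 CPM in the 7 samples with high Y-linked RNA and between 3.11 and 66.82 CPM in the other 8, and C8g shows no such split.

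GREEN samples differed from each other in how low the 35 genes were. Set against the mean of the RED samples of the same experiment, the median log2 ratio of the 35 genes was -0.13 in GREEN 1, -0.40 in GREEN 2, -1.06 in GREEN 3, -2.09 in GREEN 4 and -1.35 in GREEN 5. That mean held RED 1 and RED 5 in experiment 1, and RED 2, RED 3 and RED 4 in experiment 2. The 35 genes summed to 78081 CPM in RED 1 and 47575 CPM in RED 5. They summed to 68213, 48894 and 56646 CPM in RED 2, RED 3 and RED 4. The SD across the 35 genes within a GREEN sample was 0.30 to 0.49. The reference genes gave -0.14, -0.21, -1.23, -2.13 and -1.30 in the same samples. GREEN 4, with the highest biliary sum, had the 35 genes at 0.235 times the RED mean of its experiment (median). GREEN 1, with the lowest biliary sum of the GREEN samples, had them at 0.913 times that of its own experiment. In GREEN 1, 28 of the 35 genes were below the RED mean, and C3 was the highest at 0.35. In GREEN 4 all 35 were below it, from -2.77 for Klkb1 to -0.47 for Pros1. Without GREEN 3, GREEN 4 and GREEN 5 the fitted median was -0.22 and no gene passed in edgeR. The part of biliary RNA in these differences was not tested.

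**Figure D4:**
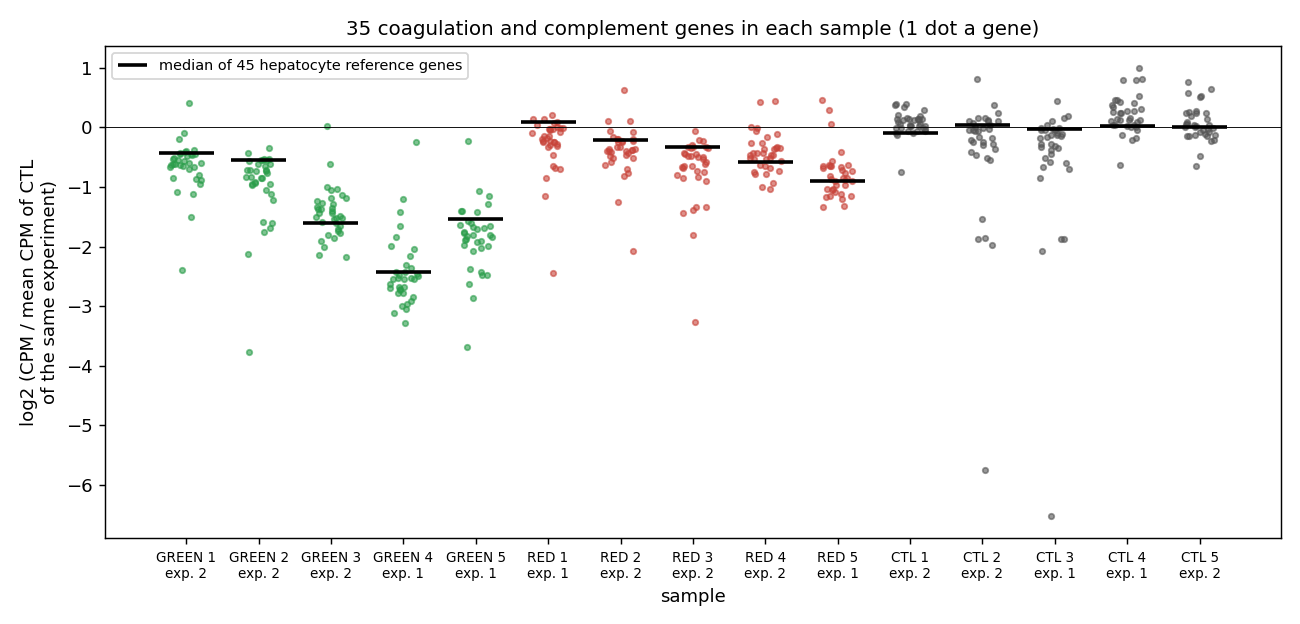
Log2 ratio of each of the 35 genes (dots) to the mean CPM of the CTL samples of the same experiment, by sample, with a black bar at the median of the 45 hepatocyte reference genes. That mean held CTL 3 and CTL 4 in experiment 1, and CTL 1, CTL 2 and CTL 5 in experiment 2. In GREEN 4 the median of the 35 genes is -2.54 beside -2.43 for the reference genes, and in GREEN 1 it is -0.60 beside -0.43; the dots far below the rest in CTL 2 and CTL 3 are C6.

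To ask whether any gene left the common level, libraries were rescaled so that the 45 hepatocyte reference genes had equal median levels. After that, 0 of the 35 genes passed in GREEN versus RED in edgeR, 0 had an unadjusted p under 0.05, and limma-voom also called 0. Of all genes tested 50.6% passed, nearly all as higher, and 0.0061% passed as lower; an unadjusted p under 0.05 was reached by 60.2% in either direction and by 0.0061% as lower. The rescaled changes of the 35 genes had a median of -0.08 and spanned -0.24 (F9) to 0.60 (Pros1), and the reference genes themselves spanned -0.26 to 0.44. F9 had a 95% interval of -0.68 to 0.19 and Pros1 one of -0.18 to 1.37. The 95% intervals of all 35 genes held 0, and their reach to either side of the estimate had a median of 0.44 (lowest 0.35, highest 2.51 for C6), so that smaller departures from the reference genes were mostly not detectable. The median of all genes tested was 0.97 after this rescaling, against -0.02 under TMM. With library totals it was 0.42, and the median of the 35 genes was -0.51. Fits of single experiments gave 2 genes passing, Proc and Pros1, both higher in GREEN, in experiment 1 and 0 in experiment 2. How many of all genes passed in these fits is not given.

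In RED relative to CTL hepatocytes, none of the 35 genes passed in edgeR, DESeq2 or limma-voom, although 16.2% of all genes tested passed in edgeR, 1.99% as lower and 14.2% as higher. The estimates were below 0 for 34 of 35 genes, from -1.05 (C8b) to 0.20 (Pros1) with a median of -0.42, beside -0.34 for the reference genes and 0.05 for all genes. An unadjusted p under 0.05 with a lower level was reached by 2 of the 35 genes, beside 6.85% of all genes. They were F11 (-0.81, adjusted p = 0.112), a protease that activates factor IX, and Hc (-0.98, adjusted p = 0.146). Hc had 1592, 1434, 1008, 1263 and 1154 CPM in RED 1 to 5, and 2764, 871.9, 1437, 3722 and 3952 CPM in CTL 1 to 5, so that RED lay within a far wider CTL range. F2, F11 and Plg were the 3 genes whose RED samples all lay below all CTL samples, where 1.42% of all genes did. The count of genes passing was 2 without RED 1 and 1 without GREEN 1 or CTL 2. It was 10 when GREEN libraries were kept out of the fit. The shares of all genes passing in these fits are not given. Whether the moved counts are particular to the 35 genes therefore cannot be told. Masp1 (0.04) and C3 (0.10) turned to above 0 with library totals, and C6 was at 0.68 in limma-voom. With the Y-linked level as a term, chosen after seeing the data, C8b was at -0.62 and C6 at 0.81. The median of the 35 genes was then -0.41. After rescaling to the reference genes the 35 genes had a median of -0.07, 0 passed and 0 had an unadjusted p under 0.05. Of all genes 13.2% passed, 12.9% as higher and 0.305% as lower, and an unadjusted p under 0.05 was reached by 21.4% in either direction and by 0.958% as lower.

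Against CTL, with samples shared with both comparisons above, 32 of the 35 genes fell in GREEN, where 48.1% of all genes passed, 18.6% as lower and 29.5% as higher. The median log2 fold change was -1.35, beside -1.19 for the reference genes and 0.11 for all genes, and the lowest was C8b at -2.07 (adjusted p = 0.00491). C3 (-0.89, 95% interval -1.99 to 0.22), C6 (-1.87, -4.44 to 0.70) and Pros1 (-0.17, -0.58 to 0.24) did not pass. Y-linked RNA was high in 3 CTL samples and in 2 GREEN samples. With the Y-linked level as a term, chosen after seeing the data, C8b was at -1.54 and C6 at -0.02. The median of the 35 genes was then -1.37. All GREEN samples were below all CTL samples for 25 of the 35 genes, against 9.59% of all genes; in GREEN versus RED this held for 9, against 2.25%. The count of 32 was 21 without GREEN 4 and GREEN 5 and 7 (F9, F10, Proc, F13b, Serpinc1, Masp2 and C8g) without GREEN 3 as well. For these fits too the shares of all genes passing are not given, so the moved counts cannot be set against them.

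Rescaled to the reference genes, GREEN versus CTL left 3 of the 35 genes past the threshold, where 78.9% of all genes passed, 0.598% as lower and 78.3% as higher: Pros1 higher at 1.23 (SE 0.37, adjusted p = 0.00716), F9 lower at -0.48 (SE 0.21, adjusted p = 0.0445) and Hc lower at -0.77 (SE 0.34, adjusted p = 0.0451). The median of all genes tested was 1.48 on this scale, above the value of Pros1. All rescaled GREEN values of Hc (794 to 1271 CPM) lay within the CTL range (638.2 to 2992 CPM). Rescaled F9 spanned 131.2 to 179.4 CPM in GREEN and 164.2 to 287.7 CPM in CTL. Rescaled Pros1 spanned 54.3 to 184.9 CPM in GREEN and 28.7 to 57.7 CPM in CTL. In CTL, Hc was at 2097, 2153 and 2992 CPM where Y-linked RNA was high, and at 638.2 and 897.3 CPM elsewhere. Pros1 is made by endothelial and other cells as well as by hepatocytes. The count of 3 was 5 without GREEN 1, and 1 without GREEN 2, GREEN 4, GREEN 5, RED 2, RED 4, RED 5 or CTL 4; it was 0 without both GREEN 4 and GREEN 5 and in experiment 2 alone. Pros1 was the gene left wherever the count was 1. How many of all genes passed in those fits is not given. With the library totals in place of either scaling, Pros1 was higher in GREEN than in CTL by 0.59 (adjusted p = 0.0158), while its TMM-scaled estimate was below 0.

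Levels between genes are compared per kilobase of exon. C3 was the most abundant in each group at 2081, 3276 and 3568 CPM per kilobase in GREEN, RED and CTL, followed by Fga at 1356, 2537 and 3265. At the low end Masp1 had 9.01, 14.4 and 17.2 CPM per kilobase in GREEN, RED and CTL, and Pros1 14.7, 19.1 and 16.6.

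Genes of the same cascades outside these 35 were followed as lists. Of 13 other liver-made cascade proteins, 1 fell in GREEN versus RED, beside 3.22% of all genes. It was C4bp, the gene of a chain of the C4b-binding protein, with 381.3, 379.2, 372.9, 227.5 and 235.9 CPM in GREEN 1 to 5, against 783.6, 459, 463.6, 709.5 and 722.8 CPM in RED 1 to 5 (log2 fold change -0.95, SE 0.27, adjusted p = 0.0378). The list's median was -0.88, close to that of the 35 genes. In RED versus CTL, 2 of the 13 rose, the collectins Colec10 (2.95, adjusted p = 0.00136) and Colec11 (3.58, adjusted p = 0.000589), named after their values were seen, and none fell, where 14.2% of all genes rose. The mean of Colec10 was 44.4 CPM (SD 36.2) in RED and 5.43 CPM in CTL. That of Colec11 was 34.2 CPM (SD 25.9) in RED and 2.63 CPM in CTL. Summed endothelial, stellate and macrophage markers were on average higher in RED too, and the part of other cells in the collectin values was not tested. In GREEN versus CTL 11 fell and the same 2 collectins rose, where 18.6% of all genes fell and 29.5% rose.

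Of 18 tested cascade genes typical of other cells, 4 rose and 1 (Tfpi2, at -0.89, adjusted p = 0.0281) fell in GREEN versus RED, with a list median of -0.22. Of all genes 9.68% rose and 3.22% fell. Despite the list's name, Tfpi2 was highest in CTL, with means of 19.8, 37.0 and 49.4 CPM in GREEN, RED and CTL. Its change was near the median of the hepatocyte reference genes, -0.87. F3, the gene of tissue factor, which starts clotting, had 5.02, 6.59, 20.9, 29.6 and 22.4 CPM in GREEN 1 to 5, against 3.65, 3.19, 2.68, 1.77 and 3.31 CPM in RED 1 to 5 (2.43, SE 0.37, adjusted p = 0.00113). Plaur, the urokinase receptor, was higher by 2.60 (adjusted p = 0.00742), C7, a terminal complement component, by 2.57 (adjusted p = 0.0249) and Plat, tissue-type plasminogen activator, by 1.96 (adjusted p = 0.0375). C7 was low throughout, at 0.326 to 3.62 CPM in GREEN and 0.0957 to 0.7 CPM in RED. For Plaur, C7 and Plat the lowest GREEN value lay inside the RED range. For F3, Plaur, C7 and Plat alike, the 3 highest GREEN values were those of GREEN 3, GREEN 4 and GREEN 5, the samples with the high biliary sums. In RED versus CTL, 14 of the 18 rose and none fell (14.2% and 1.99% of all genes), where summed endothelial, stellate and macrophage markers were higher in RED too. The part of other cells in these values was not tested.

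Of 12 receptors and membrane regulators, 1 rose in GREEN versus RED, beside 9.68% of all genes. It was F2rl1, a protease-activated receptor, with 2.93, 5.32, 14.8, 31.6 and 20.8 CPM in GREEN 1 to 5, against 0.416, 0.334, 0.564, 0.468 and 0.597 CPM in RED 1 to 5 (4.85, SE 0.71, adjusted p = 0.000858). In RED versus CTL 6 of the 12 rose and none fell, beside 14.2% and 1.99% of all genes. The machinery that carboxylates and exports clotting factors had 3 of 7 genes that fell in GREEN versus RED, beside 3.22% of all genes, and the list's median was -0.68. Vkorc1, which recycles vitamin K, was at -0.75 (adjusted p = 0.0387), and Lman1 and Mcfd2, whose products carry factors V and VIII out of the endoplasmic reticulum, at -0.68 (adjusted p = 0.0437) and -0.67 (adjusted p = 0.0208). None of the 7 passed in RED versus CTL, where their median was -0.33, and all 7 fell in GREEN versus CTL, where 18.6% of all genes fell.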

How the data were processed

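RNA of 15 biological samples was sequenced as 19 libraries from 150 ng of total RNA each, per the labels' protocols with TruSeq Stranded mRNA (poly(A) selection) in experiment 1 and KAPA HyperPrep with RiboErase (ribosomal RNA removal) in experiment 2. The deposited tables hold the authors' estimated counts per gene, made with kallisto 0.43.1 on GRCm38 per the submitters' processing notes. No source used here names the annotation release or how transcripts were summed to genes. Such counts are estimates shared out between similar transcripts, which leaves those of close paralogs uncertain. C4a is not analysed here.

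Counts were rounded and each sample was represented by 1 library, that of experiment 2 for CTL 5, RED 2, RED 3 and RED 4, which have 2. Symbols, positions and exon lengths came from GENCODE M21, which held 34845 of the 35274 genes (98.8%); 214 of 215 listed genes were matched (all but Anxa13). R 4.3.3 with edgeR 4.0.16 (filterByExpr, TMM, glmQLFit and glmQLFTest; group and experiment as terms, all 15 samples in the fit) gave Benjamini-Hochberg adjusted p over 16387 genes, called at 0.05. A second fit set library sizes by the median ratio of 45 hepatocyte reference genes. Intervals are 95% intervals of that model and cover only the spread between the labelled biological replicates. The edgeR step was tested on simulated counts. Alternatives were limma-voom (limma 3.58.1), DESeq2 1.42.0, other scalings and filters, single experiments, replicate blocks, and samples left out.

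The members and lists were chosen with earlier results of these data known. In each role the genes with the lowest and the highest estimate in GREEN versus RED were given in every sample, and of other lists up to 4 passing genes with the largest change; C1ra, Cfi and Hc were added after their values were seen.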

Additional observations from a re-analysis of the deposited data

Results flagged for a closer look

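In 9 of the 105 combinations of gene and group, 1 sample stood apart from the other 4 of its group by Dixon's criterion, which chance alone meets in about 1 of 20 groups. RED 1 was high in 6 of them. Its level was 507.6 CPM for Proc (other RED samples 289.9 to 328), 725.5 CPM for F12 (407.1 to 453.9) and 3676 CPM for Kng1 (1799 to 2000). It was also 598 CPM for Mbl2 (233.4 to 263.8), 1088 CPM for Cfi (729.5 to 806.9) and 463.1 CPM for C8g (180.4 to 230.2). CTL 4 was high for Plg at 5106 CPM (other CTL samples 4264 to 4297) and for Mbl1 at 342.3 CPM (189.3 to 223.5). RED 3 was low for C8a at 493.1 CPM (874.9 to 1039). RED 1 had the lowest TMM factor of the RED libraries, 0.789, against 0.9829 to 1.079 in the others. RED 1, RED 5, CTL 3 and CTL 4 are experiment 1 libraries, and the criterion made no allowance for the experiment. In samples sequenced in both, the mean log2 ratio of experiment 2 to experiment 1 was -0.49 for Proc. It was -0.48 for F12, -0.51 for Kng1, -0.41 for Mbl2, -0.28 for Cfi and -0.64 for C8g. For Mbl1, Plg and C8a it was -0.43, -0.09 and -0.23. The part of the kits in the flagged values was not tested.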

How the results depend on the processing

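Counts of genes passing moved by more than 1.5 times as follows. For GREEN versus RED (5 genes) the count was 25 with DESeq2, 23 with limma-voom, 1 with library totals, 26 with the experiment 1 library of samples that have 2, 30 in experiment 1 alone, 0 in experiment 2 alone, 0 with only the groups compared in the fit and 0 without GREEN 4 and GREEN 5. Alternatives chosen after seeing the data gave 0 without GREEN 3, GREEN 4 and GREEN 5 and 20 with the Y-linked term. The replicate block by code number gave 3 in GREEN versus RED but 13 in GREEN versus CTL, and the block by the codes of experiment 2, also chosen later, gave 16 in GREEN versus RED but 1 in RED versus CTL; the block by title number gave 5 in GREEN versus RED. The labels do not say that codes mark animals. The numbers were not taken as pairs over all samples, since correlations differed between codes and experiments. In experiment 2, deviations of same-coded RED and GREEN samples correlated above 0.3 for codes 2, 3 and 4. In experiment 1 they correlated at 0.191 for code 4 and at -0.0834 for code 5. Deviations of same-titled samples correlated at -0.19 to 0.477. For GREEN versus CTL (32 genes) experiment 2 alone gave 10, without GREEN 4 and GREEN 5 the count was 21, and without GREEN 3 too it was 7. For RED versus CTL (0 genes) experiment 1 alone gave 2 and only the groups compared gave 10. Relative to the reference genes, GREEN versus RED (0 genes) had 1 with the experiment 1 library and 2 in experiment 1 alone. GREEN versus CTL (3 genes) had 0 without GREEN 4 and GREEN 5, 0 when GREEN 3 was left out too, 0 in experiment 2 by itself, and 1 with each replicate block, with only the groups compared and with scaling by the 35 genes themselves. Leaving out 1 sample at a time gave 0 to 2 for RED versus CTL, 1 to 24 for GREEN versus RED and 31 to 33 for GREEN versus CTL, and relative to the reference genes 0 to 0, 0 to 0 and 1 to 5. The causes of these shifts were not tested, and the shares of all genes passing in these alternative fits are not given here. Signs turned for few genes: in RED versus CTL, C6 was 0.68 in limma-voom, 0.41 with the block by title number and 0.81 with the Y-linked term; C3 was 0.10 with library totals, 0.0863 with the experiment 1 library and 0.0527 in experiment 2 alone; Masp1 was 0.0384 with library totals; and Pros1 ran from -0.0053 (without CTL 3) to 0.338 (without CTL 4) with 1 sample left out. With library totals Pros1 was 0.0656 in GREEN versus RED and 0.59 in GREEN versus CTL, and C3 was 0.10 in GREEN versus RED without GREEN 3, GREEN 4 and GREEN 5. Of the other values of single genes, 2893 kept direction and side of the threshold, 197 lost the call and 168 gained it.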

Other observations

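For the 4 samples sequenced in both experiments, the level of a coagulation or complement gene in experiment 2 relative to experiment 1 had a median log2 ratio of -0.37 over the 35 genes, from -0.71 for Masp2 to 0.49 for Klkb1. Among the 3 chains of C8, per kilobase of exon, C8g had a median share of 30.2% in GREEN (24.3% to 47.2%), 30.2% in RED (24.3% to 46.3%) and 24.4% in CTL (20.3% to 61.8%). These ranges were wider than those of the fibrinogen chains.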
